A study of Arabidopsis thaliana with 8 samples.

Results

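The genes described here had less transcript in dark-grown seedlings with mutations in 4 auxin receptor genes, and about the same amount in blue light as in darkness. They were chosen from group means of RPKM (reads scaled to the length of the gene model and to the depth of the library), with 1 added to each mean before taking ratios. A gene was taken when its log2 ratio of tir1 afb1 afb2 afb3 in darkness over the wild type in darkness was at most -1.5, and when its ratios of the wild type in blue light and of cry1 cry2 in blue light over the dark wild type both lay between -0.3 and 0.3. By this rule 111 of the 27416 gene models were taken. All 4 groups entered the choice, so the differences of the 111 genes between groups are descriptions and carry no test.

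Polyadenylated RNA was sequenced from seedlings of Arabidopsis thaliana, accession Col-0, as 8 libraries. Darkness was given to the wild type and to a quadruple mutant, tir1 afb1 afb2 afb3, and blue light at 15 µmol per m2 per s to the wild type and to a double mutant, cry1 cry2, with 2 libraries for each of these 4 groups and 19.3 M to 23.1 M reads behind each library. Every group was sown on 1% sucrose, chilled for 3 days, lit with white light for 12 h and then held for 4 days in its own light condition. Organs are not named in the labels. Separate cultures for the libraries of a group are not stated either, so a p-value measures only the spread between these libraries. The series set out to find genes regulated through cryptochromes in blue light and genes that depend on the TIR1/AFB receptors. The tir1 afb1 afb2 afb3 group is called the receptor mutant below.

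Auxin binds TIR1 and its relatives AFB1 to AFB3, which are F-box proteins. The bound receptors mark Aux/IAA repressors for destruction, and ARF transcription factors then act on their target genes. In seedlings this pathway is known for cell elongation, root growth, gravity responses, lateral roots, root hairs and the formation of vascular strands. CRY1 and CRY2 are cryptochromes, the receptors through which blue light restrains elongation and opens the cotyledons.

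ARF proteins bind short promoter elements that start with TGTC, so the 250 bases before the gene start were read for the 110 of the 111 genes found in RefSeq (TAIR10.1). The element TGTCNC, on either strand, stood in 30 of them (27.3%), beside 23.8% of 26713 promoters of the same length. It includes TGTCTC, which stood in 10% of the promoters of the 111 genes and 10.9% of all promoters. TGTCGG stood in 0.909% and 4.16%, the G-box CACGTG in 5.45% and 6.58%, GATAAG in 10% and 12.2%, and TATAAA in 50% and 47.7%. 3 of these promoters are printed because their genes are taken up below or because they hold several matches. EIR1, an auxin efflux carrier, and WOL, a cytokinin receptor, hold 1 match each, and COBL5 holds 2. They run 5′ to 3′ on the strand of the gene, with the matches in capitals. Where a match is on the opposite strand it reads GAGACA or GTGACA.
EIR1, chr5:23100266-23100515, plus strand: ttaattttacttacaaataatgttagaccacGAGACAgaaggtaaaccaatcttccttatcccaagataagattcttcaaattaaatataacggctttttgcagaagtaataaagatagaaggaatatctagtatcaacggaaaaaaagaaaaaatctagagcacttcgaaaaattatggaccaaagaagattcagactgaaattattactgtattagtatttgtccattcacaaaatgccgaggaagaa
WOL, chr2:369708-369957, minus strand: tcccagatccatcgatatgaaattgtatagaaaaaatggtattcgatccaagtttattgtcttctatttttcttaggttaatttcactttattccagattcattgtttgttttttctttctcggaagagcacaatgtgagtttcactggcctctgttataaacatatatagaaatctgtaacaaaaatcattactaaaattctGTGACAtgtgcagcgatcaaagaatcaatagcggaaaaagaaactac
COBL5, chr5:24528152-24528401, minus strand: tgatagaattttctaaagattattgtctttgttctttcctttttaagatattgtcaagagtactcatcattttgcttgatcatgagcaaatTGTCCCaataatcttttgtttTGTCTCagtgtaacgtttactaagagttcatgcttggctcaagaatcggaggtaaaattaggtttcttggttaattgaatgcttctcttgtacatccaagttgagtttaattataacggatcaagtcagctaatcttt
A match describes these letters only.

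The mutated receptor genes were read first. AFB1 (AT4G03190, named GRH1 in RefSeq) had 35.6 and 36.2 RPKM in the dark wild type, 24.2 and 24.6 in the blue-lit wild type, 35.5 and 36.04 in cry1 cry2 and 1.45 and 0.819 in the receptor mutant. AFB2 (AT3G26810) had 50.4 and 51.5 RPKM in the dark wild type, 23.8 and 23.8 in the blue-lit wild type, 34.8 and 31.3 in cry1 cry2 and 0.996 and 0.586 in the receptor mutant. Both were nearly absent from the receptor mutant, at 3.16% and 1.55% of the dark wild-type mean. AFB3 (AT1G12820) had 16.7 and 17.98 RPKM in the receptor mutant, against 32.6 and 36.3 in the dark wild type, 22.2 and 21.4 in blue light and 27.9 and 28.1 in cry1 cry2. TIR1 (AT3G62980) had 59.96 and 58.8 RPKM in the receptor mutant, against 75.8 and 78.1 in the dark wild type, 49.3 and 51.1 in blue light and 63.6 and 62.3 in cry1 cry2. Transcript of these receptors thus remained in the mutant at 50.3% and 77.1%, and the amount of transcript alone did not mark those alleles.

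Over the 111 genes, the dark wild-type level ran from 2.69 to 227 RPKM with a median of 13.1 RPKM. Of them 19 were under 5 RPKM, 52 at 5 to 20, 29 at 20 to 100 and 11 at 100 RPKM or more. In the receptor mutant the median was 2.55 RPKM, and the level left ran from 0.729% to 34.1% of the dark wild type with a median of 18.3%. The log2 ratio on RPKM + 1 ran from -4.33 to -1.504 with a median of -1.89, where the median of all tested genes was -0.24. It was at most -3 in 4 genes, between -3 and -2 in 44, and above -2 in 63. All 111 passed the filter on low values (at least 1 RPKM in at least 2 libraries), which 20044 genes passed.

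**Figure D1:**
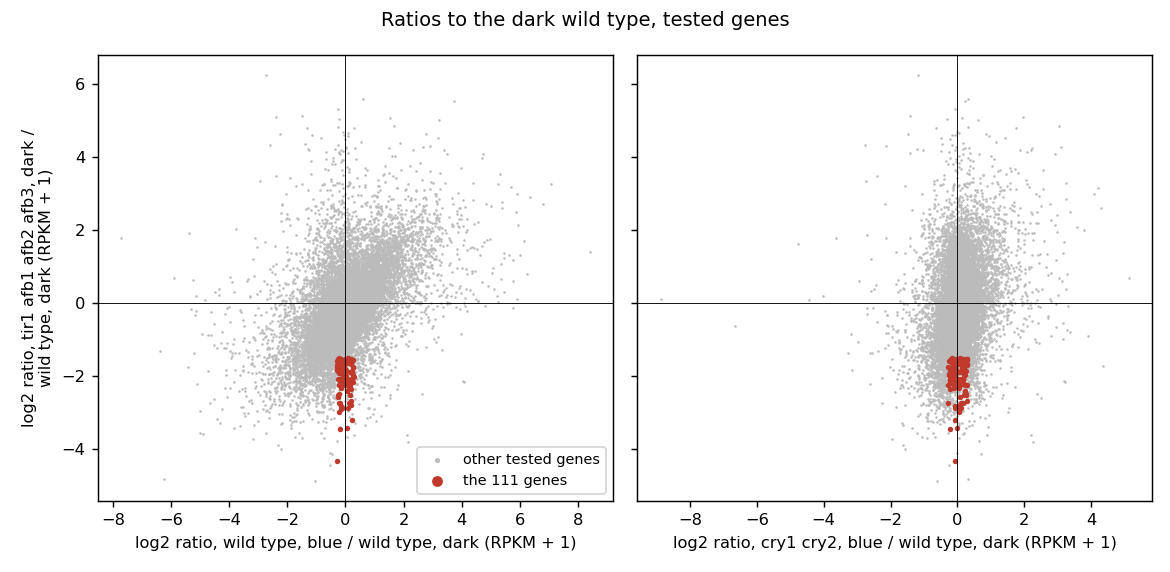
Each point is a tested gene, with the log2 ratio of the receptor mutant over the dark wild type on the vertical axis and, on the horizontal axis, the ratio of the wild type in blue light (left) or of cry1 cry2 in blue light (right) over the dark wild type, all on RPKM + 1. The 111 genes (red) fill the narrow strip within 0.3 of 0 and at or below -1.5, because the rule placed them there, and the other tested genes (grey) spread to both sides.

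The strip is a thin slice of what was lower without the receptors. Of 1412 gene models at or below -1.5 in the receptor mutant, 111 met both blue-light windows, 506 met only the cry1 cry2 window, 87 only the wild-type window, and 708 neither. In 1085 of the 1412 the wild type in blue light lay below the dark wild type by more than 0.3, and in 129 above it by more than 0.3. The same rule turned upward, at or above 1.5, took 131 genes. Among tested genes, 7.06% had a fitted log2 change of -1.5 or less, and limma called 51.4% lower and 27.5% higher in the receptor mutant (78.9% in all) at a Benjamini-Hochberg adjusted p under 0.05. All 111 genes were among the called lower, which the rule leaves little room to avoid. In all 111, both mutant libraries also lay below the other 6 libraries, as they did in 40.9% of tested genes. For blue light in the wild type, limma called 21 of the 111 lower and 5 higher, beside 40.4% and 34% of tested genes (74.4% in all), and the window kept all of these changes small.

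The rule fixed the range of both blue-light ratios. In the wild type in blue light 68 of the 111 lay below the dark wild type and 43 above, with a median log2 ratio of -0.08, where 56.1% of the 5705 tested genes in both windows lay below, with a median of -0.03. In cry1 cry2 44 lay below and 67 above, with a median of 0.07, where 66.8% of those 5705 lay above, with a median of 0.05. The 2 libraries of a group lay close together, with median gaps of 0.074 in the dark wild type, 0.088 in the blue-lit wild type, 0.083 in cry1 cry2 and 0.111 in the receptor mutant on the log2 scale. The widest gap in the mutant was that of AT5G19870, at 0.44. Recovered reads over the 2 mutant libraries ran from 1 to 3528 per gene with a median of 118, so the weakest genes rest on few reads. AT1G54530, an EF-hand calcium-binding protein, had 3 and 0 reads in the mutant, and RTFL19, a small ROTUNDIFOLIA-like peptide gene, had 1 and 0.

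**Figure D2:**
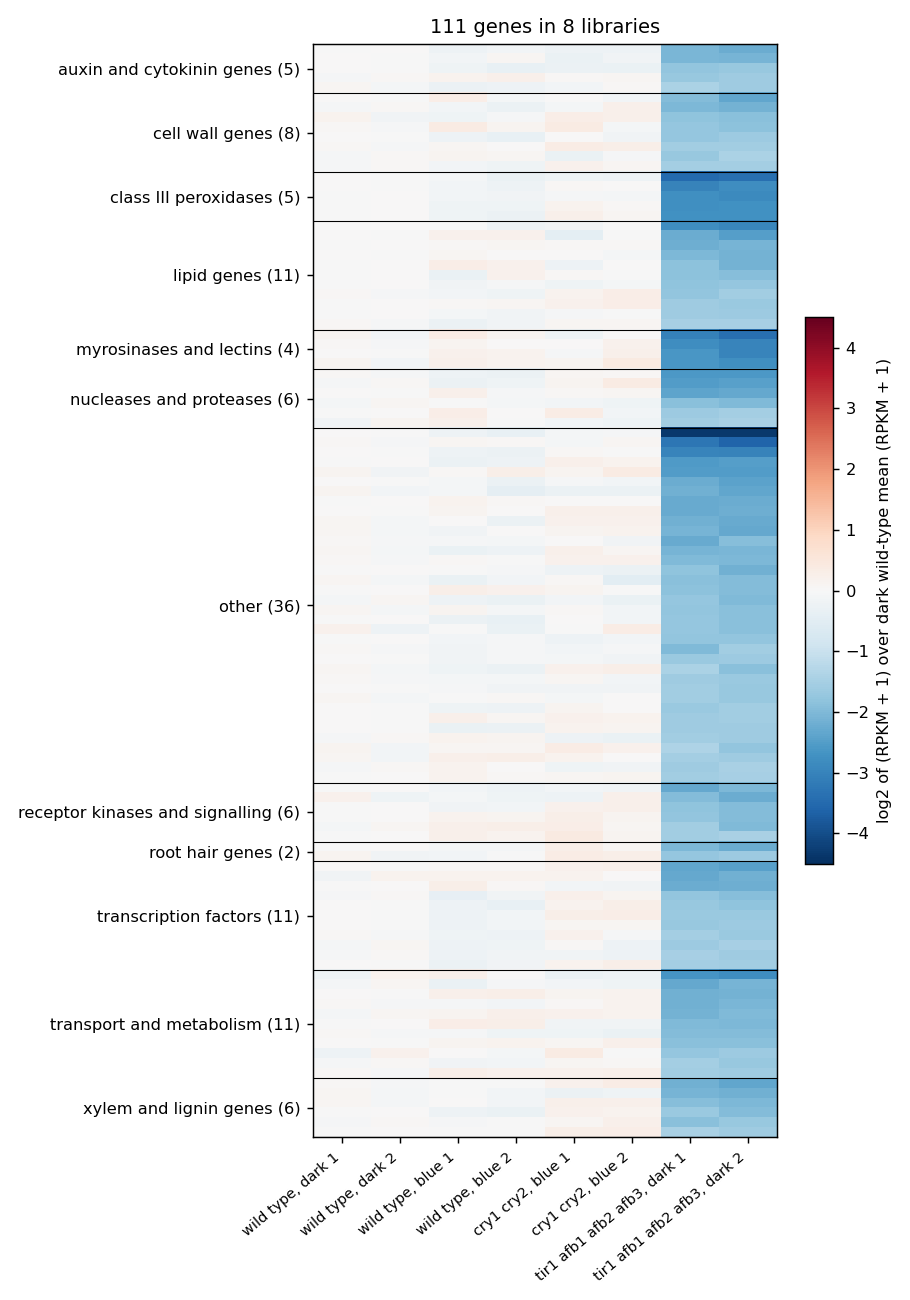
Each row is a gene, grouped by role with the number of genes in parentheses, and each column a library. Colour gives the log2 ratio of RPKM + 1 over the dark wild-type mean, and the 2 receptor mutant columns are blue in every row while the other 6 stay near white.

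In bulk seedlings, fewer cells of a type and less RNA per cell cannot be told apart. This holds for every level given here for genes of the root, the vascular strands or other tissues.

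Genes of hormone transport and signalling came first by role. EIR1 (AT5G57090), also called PIN2, is the auxin efflux carrier that moves auxin shootward through the outer root tissues and serves root gravity responses. Its level was 14.7 and 14.7 RPKM in the dark wild type, 13.5 and 15.5 in the blue-lit wild type, 11.7 and 13.2 in cry1 cry2 and 2.75 and 2.68 in the receptor mutant, a log2 ratio of -2.08. The 2 mutant libraries stood under the other 6, as in all 111 genes and in 40.9% of tested genes. WOL (AT2G01830) encodes a cytokinin receptor needed for cell divisions in root vascular tissue, and ARR4 (AT1G10470) a response regulator that cytokinin induces. WOL had 12.8 and 13.4 RPKM in darkness and 11.1 and 11.9 in blue light in the wild type, 11.05 and 11.2 in cry1 cry2 and 2.37 and 2.04 in tir1 afb1 afb2 afb3. ARR4, the most abundant of the 5 hormone genes, had 68.01 and 71.7 RPKM in darkness and 77.8 and 82.7 in blue light in the wild type, 73.3 and 74.1 in cry1 cry2 and 20.7 and 22.2 in tir1 afb1 afb2 afb3. The ratios were -2.14 and -1.66. AT4G34750, which belongs to the SAUR family of early auxin-induced genes, had 7.52 and 6.47 RPKM in the dark wild type, 5.65 and 5.801 in the blue-lit wild type, 6.29 and 7.26 in cry1 cry2 and 1.95 and 1.64 in the receptor mutant. It sat just inside the threshold at -1.52. AT4G17280, annotated as an auxin-responsive protein, went from 31.7 ± 0.258 RPKM (mean ± SD, n = 2) in the dark wild type to 8.79 ± 0.461 in the mutant, a ratio of -1.74.

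Xylem and lignin genes made up 6 of the 111. TED6 (AT1G43790) takes part in secondary wall formation of vessel elements. TED6 had 58.5 and 53.3 RPKM in the dark wild type, 55.8 and 55.7 in the blue-lit wild type, 64.6 and 70.9 in cry1 cry2 and 11.7 and 10.2 in the receptor mutant. FLA12 (AT5G60490), a fasciclin-like arabinogalactan protein of secondary walls, had 10.5 and 9.12 RPKM in the dark wild type, 9.99 and 8.83 in the blue-lit wild type, 11.6 and 11.6 in cry1 cry2 and 1.896 and 1.68 in the receptor mutant. Both were highest in cry1 cry2, and the receptor mutant kept 19.6% and 18.2% of the dark wild-type level. AT1G68810 (T5L1) encodes a bHLH protein related to TMO5 that promotes divisions of vascular precursor cells. It had 21.01 and 18.8 RPKM in the dark wild type, 19.5 and 18.1 in the blue-lit wild type, 16.4 and 17.4 in cry1 cry2 and 3.94 and 3.63 in the receptor mutant, so its level was lower in the mutant and slightly lower in cry1 cry2. The other genes of the group were XSP1, a subtilisin-like protease first found in xylem, ABCG29, a transporter of lignin precursors, and 4CL1, an enzyme on the way to lignin. They stood at -1.79, -1.81 and -1.52 in turn. 4CL1 was the strongest of them, at 84.2 ± 1.98 RPKM in the dark wild type and 28.7 ± 2.23 in the mutant.

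Class III peroxidases are secreted haem enzymes that oxidise phenolic compounds in the cell wall. The 5 class III peroxidases had a median ratio of -2.81, below the median of the 111. AT2G38390 had 21.01 and 20.9 RPKM in the dark wild type, 19.5 and 17.01 in the blue-lit wild type, 18.4 and 17.7 in cry1 cry2 and 0.923 and 1.07 in the receptor mutant. AT2G39040 had 9.77 and 9.49 RPKM in the dark wild type, 8.75 and 8.18 in the blue-lit wild type, 9.95 and 9.87 in cry1 cry2 and 0.333 and 0.538 in the receptor mutant. These were the deepest of the 5, at -3.46 and -2.89, with under 5% of the dark wild-type level left. The other 3 were more abundant. AT2G18980 had 8.46 and 7.65 RPKM in the receptor mutant, against 61.8 and 62.9 in the dark wild type, 56.8 and 56.1 in blue light and 59.7 and 58.9 in cry1 cry2. AT3G01190 had 14.3 and 14.6 RPKM in the receptor mutant, against 101 and 102 in the dark wild type, 88.04 and 88.3 in blue light and 113 and 105 in cry1 cry2. AT5G17820 had 17.2 and 17.1 RPKM in the receptor mutant, against 119 and 119 in the dark wild type, 105 and 98.2 in blue light and 140.0 and 128 in cry1 cry2. In each of these 3, between 12.9% and 14.5% was left in the mutant. The proteins share 39.8% to 46.9% of aligned residues with each other, so they are separate members of a large family. By product name, which was looked up after values were seen, 61 genes of the peroxidase superfamily were tested. Of them 37 had a log2 ratio of group means of -1 or less in the receptor mutant and 2 a ratio of 1 or more, at a median of -1.17. By the fitted log2 change, 15.9% of all tested genes lay at -1 or less and 10.5% at 1 or more. The product name also covers enzymes other than class III peroxidases. Of these 61, 6 are among the 111, namely the 5 above and DOX1, an alpha-dioxygenase. Of the other 55, 31 had a fitted change of -1 or less. A ratio of -1.5 or less was found in 25 of the 61. Of these 25, the blue-lit wild type lay below the dark wild type by more than 0.3 in 13 and above it by more than 0.3 in 4.

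Myrosinases split glucosinolates, the mustard oil precursors. BGLU34 (AT1G47600, TGG4) and BGLU35 (AT1G51470, TGG5) are myrosinases whose proteins are identical at 97.7% of 511 aligned residues. BGLU34 had 28.3 and 26.0045 RPKM in the dark wild type, 29.6 and 27.5 in the blue-lit wild type, 27.7 and 30.98 in cry1 cry2 and 3.104 and 2.61 in the receptor mutant. BGLU35 had 24.8 and 23.8 RPKM in the dark wild type, 27.9 and 27.2 in the blue-lit wild type, 23.4 and 28.4 in cry1 cry2 and 3.14 and 2.22 in the receptor mutant. Reads that fit both copies may have been divided between them, since the way reads were assigned is not given in the sources used here, so their separate levels are uncertain. MLP-300B (AT3G16440), a myrosinase-binding-like protein, had 29.8 and 25.2 RPKM in the dark wild type, 32.6 and 30.7 in the blue-lit wild type, 30.3 and 36.9 in cry1 cry2 and 3.64 and 3.22 in the receptor mutant. AT1G52070, a mannose-binding lectin, had 56.5 and 48.02 RPKM in the dark wild type, 65.7 and 56.6 in the blue-lit wild type, 45.6 and 53.5 in cry1 cry2 and 5.49 and 4.06 in the receptor mutant. All 4 kept 9.15% to 12.5% of the dark wild-type level in the mutant. Across whole families, of 25 tested beta-glucosidases 4 had a log2 ratio of -1 or less and 8 of 1 or more. Of 19 mannose-binding lectins 8 and 3 did. The rule placed 2 of those 4 beta-glucosidases, BGLU34 and BGLU35, and 1 of those 8 lectins, AT1G52070. Over all tested genes the shares by the fitted change were 15.9% and 10.5%.

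**Figure D3:**
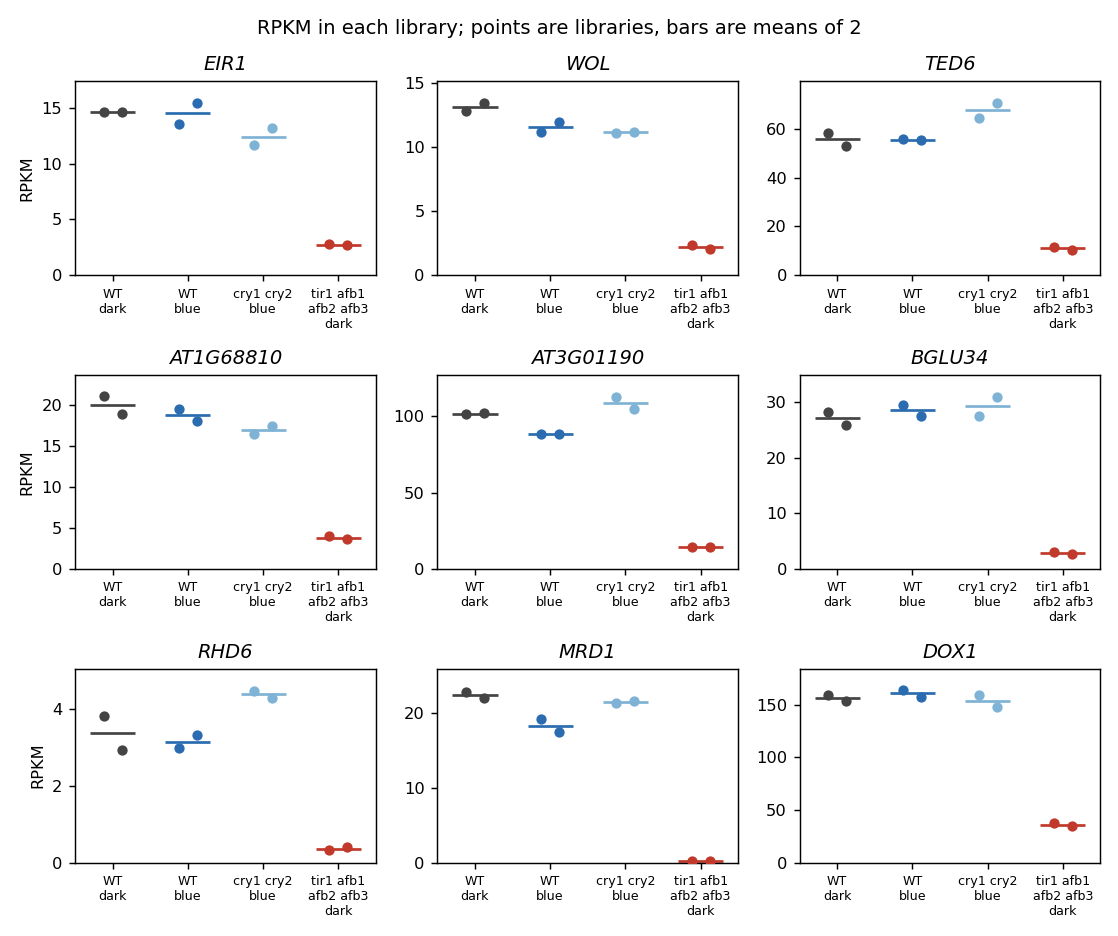
RPKM of 9 of the genes in each library, with points for libraries and bars for the mean of the 2 libraries of a group, on axes that start at 0. In every panel the 2 receptor mutant points lie under all 6 others, as they do for all 111 genes. They run from under 0.2 RPKM for MRD1 to about 36 RPKM for DOX1.

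The steepest difference of all was that of MRD1 (AT1G53480), named for its low transcript in the methionine over-accumulating mutant mto1. MRD1 had 22.8 and 22.02 RPKM in the dark wild type, 19.1 and 17.4 in the blue-lit wild type, 21.2 and 21.5 in cry1 cry2 and 0.1604 and 0.167 in the receptor mutant. That is 0.729% of the dark wild type and a log2 ratio of -4.33, from 3 reads in each mutant library. AT5G54370, a protein like the late embryogenesis abundant proteins, had 39.7 and 37.6 RPKM in the dark wild type, 41.1 and 39.9 in the blue-lit wild type, 36.5 and 40.7 in cry1 cry2 and 3.15 and 2.24 in the receptor mutant. AT3G50640, of unknown function, had 19.8 and 19.3 RPKM in the dark wild type, 16.6 and 16.3 in the blue-lit wild type, 20.6 and 19.6 in cry1 cry2 and 1.63 and 1.56 in the receptor mutant. AT5G54370 and AT3G50640 stood at -3.42 and -2.99 in the mutant, while the rule kept their cry1 cry2 levels close to the dark wild type. AT3G45070, a sulfotransferase (SULT202B1), had 7.91 and 10.2 RPKM in the dark wild type, 10.8 and 9.07 in the blue-lit wild type, 7.19 and 7.56 in cry1 cry2 and 0.592 and 0.439 in the receptor mutant. AT5G22860, a serine carboxypeptidase of the S28 family, had 13.0017 and 11.9 RPKM in the dark wild type, 10.4 and 10.121 in the blue-lit wild type, 13.4 and 12.9 in cry1 cry2 and 1.27 and 1.27 in the receptor mutant. Their ratios were -2.73 and -2.57.

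Cell wall genes numbered 8, at a median ratio of -1.73. AGP2 (AT2G22470), an arabinogalactan protein, was the most abundant of the 111. AGP2 had 232 and 223 RPKM in the dark wild type, 192 and 178 in the blue-lit wild type, 231 and 206 in cry1 cry2 and 67.6 and 72.7 in the receptor mutant. EXPA14 (AT5G56320), an expansin, one of the proteins that loosen walls, had 11.1 and 12.04 RPKM in the dark wild type, 10.5 and 9.48 in the blue-lit wild type, 10.7 and 13.9 in cry1 cry2 and 2.06 and 1.91 in the receptor mutant. The ratios of AGP2 and EXPA14 were -1.68 and -2.07. GH9C1 and KOR2, endoglucanases of family 9, stood at -2.12 and -1.54. COBL5, a COBRA-like protein, stood at -1.85, TBL34, a xylan acetyltransferase, at -1.56, and the dirigent-like AT2G21100 at -1.79. The pollen Ole e I family protein AT2G20515 stood at -1.55.

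Root hair genes were represented by RHD6 and MRH1. RHD6 (AT1G66470) encodes a bHLH factor that starts root hair formation. RHD6 had 3.81 and 2.93 RPKM in the dark wild type, 2.99 and 3.304 in the blue-lit wild type, 4.46 and 4.28 in cry1 cry2 and 0.323 and 0.402 in the receptor mutant. It was low in all groups and highest in cry1 cry2, and 10.7% was left in the receptor mutant. MRH1 (AT4G18640), a leucine-rich repeat kinase needed for root hair shape, went from 9.49 ± 0.0361 to 1.42 ± 0.246 RPKM, a ratio of -2.12.

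Transcription factors numbered 11, at a median ratio of -1.66. AT1G28400, annotated as a GATA zinc finger protein, was the most abundant. AT1G28400 had 104 and 103 RPKM in the dark wild type, 108 and 108 in the blue-lit wild type, 118 and 122 in cry1 cry2 and 19.6 and 18.2 in the receptor mutant, a ratio of -2.39. bHLH39 (AT3G56980), which serves the iron deficiency response of roots, had 5.09996 and 5.98 RPKM in the dark wild type, 4.65 and 4.74 in the blue-lit wild type, 5.703 and 4.59 in cry1 cry2 and 1.12 and 1.33 in the receptor mutant. It stood at -1.55, close to the threshold. The Dof zinc finger factors AT1G29160, DAG1 and AT4G24060 stood between -1.66 and -1.54. DAG1 is known for control of seed germination. Of 20 tested Dof genes, looked up by product after values were seen, 12 had a ratio of -1 or less and 1 of 1 or more. The fitted change passed these limits in 15.9% and 10.5% of all tested genes. The 3 Dof genes of the 111 are among the 12, where the rule put them, and 9 of the other 17 had a fitted change of -1 or less. AT5G61590 (DEWAX), a repressor of wax synthesis, stood at -2.22 from 54.2 ± 1.796 RPKM. The zinc finger gene AT5G10970 stood at -2.23, AT1G31050 (bHLH) at -1.85, NAC080 at -1.75 and OFP17 at -1.66. AT5G50010 (bHLH145) stood at -1.59, near AT5G50012 at -1.64. Those 2 models have nearby locus names and similar levels, 2.78 ± 0.246 and 2.94 ± 0.0202 RPKM in the dark wild type, and in replicate 1 of the dark wild type both had 106 recovered reads. Whether they share reads was not tested.

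Lipid genes numbered 11 and included some of the highest transcripts. AT3G53980 and AT3G22620 belong to the lipid-transfer protein family. AT3G53980 had 193 and 197 RPKM in the dark wild type, 174 and 188 in the blue-lit wild type, 169 and 184 in cry1 cry2 and 54.6 and 57.9 in the receptor mutant. AT3G22620 had 158 and 158 RPKM in the dark wild type, 150.1 and 142 in the blue-lit wild type, 154 and 155 in cry1 cry2 and 52.0006 and 50.1 in the receptor mutant. DOX1 (AT3G01420), an alpha-dioxygenase that oxidises fatty acids, had 159 and 153 RPKM in the dark wild type, 164 and 158 in the blue-lit wild type, 159 and 147 in cry1 cry2 and 37.3 and 34.6 in the receptor mutant. These 3 kept more of their level than most, 28.8%, 32.3% and 23.03%. AT1G06090 and AT1G06120 encode fatty acid desaturases identical at 89.6% of 299 aligned residues. AT1G06090 had 21.6 and 21.8 RPKM in the dark wild type, 21.5 and 18.5 in the blue-lit wild type, 19.3 and 21.5 in cry1 cry2 and 2.23 and 1.99 in the receptor mutant. AT1G06120 had 6.14 and 6.43 RPKM in the dark wild type, 6.48 and 6.69 in the blue-lit wild type, 6.64 and 6.61 in cry1 cry2 and 0.603 and 0.7102 in the receptor mutant. The pair lies 3 genes apart on chromosome 1, and reads may have been divided between them. AT3G06460, a GNS1/SUR4 family protein related to fatty acid elongation, stood at -2.36. The GDSL lipases AT1G54790 and AT3G53100 stood at -1.63 and -1.504, the cis-prenyltransferase CPT at -1.98, and the terpenoid synthase family genes AT3G20160 and AT4G20230 at -1.88 and -1.67.

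Genes of transport and metabolism numbered 11, at a median ratio of -2.01. AAP2 (AT5G09220) carries amino acids between xylem and phloem. AAP2 had 135 and 137 RPKM in the dark wild type, 169 and 165 in the blue-lit wild type, 121 and 121 in cry1 cry2 and 33.6 and 32.5 in the receptor mutant, so it was highest in blue-lit wild-type seedlings and had 24.2% of the dark level in the mutant. PPC3, a phosphoenolpyruvate carboxylase, stood at -1.61 from 48.4 ± 2.17 RPKM, PUP4, a purine permease, at -2.19, and UMAMIT30, a transporter of the nodulin MtN21 family, at -1.58. AT3G62040, a haloacid dehalogenase-like hydrolase, stood at -2.11, and CYP87A2, a cytochrome P450, at -2.14. Nucleases and proteases numbered 6, with ratios of -2.57 to -1.505 and a median of -2.14. Among them RNS3 (AT1G26820) and AT1G14220 are T2 ribonucleases with proteins identical at 64.0% of 222 aligned residues. RNS3 had 20.9 and 22.8 RPKM in the dark wild type, 17.9 and 18.9 in the blue-lit wild type, 24.1 and 28.5 in cry1 cry2 and 2.98 and 3.18 in the receptor mutant. AT1G14220 had 5.65 and 5.47 RPKM in the dark wild type, 6.78 and 5.396 in the blue-lit wild type, 5.74 and 5.97 in cry1 cry2 and 0.263 and 0.341 in the receptor mutant. The receptor mutant kept 14.1% and 5.43% of their dark wild-type levels. Receptor kinases and other signalling genes numbered 6, with a median of -1.88. The leucine-rich repeat kinases AT1G79620 and AT4G26540 stood at -1.89 and -1.87, the proline-rich receptor-like kinase AT5G60650 at -2.08, CIPK4, a kinase of calcium signalling, at -2.16, and the calmodulin-like CML30 at -1.52.

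The remaining 36 genes had no shared role, with ratios of -4.33 to -1.52, a median of -1.84 and dark wild-type levels of 2.69 to 117 RPKM. MRD1, AT5G54370 and AT3G50640 belong here. So do 3 of the 10 most abundant genes. MEE14 (AT2G15890) had 121 and 113 RPKM in the dark wild type, 122 and 115 in the blue-lit wild type, 133 and 134 in cry1 cry2 and 28.98 and 27.8 in the receptor mutant. AT5G22920 (RZPF34), a RING zinc finger protein, had 117 and 117 RPKM in the dark wild type, 96.7 and 99.3 in the blue-lit wild type, 138 and 131 in cry1 cry2 and 19.1 and 19.98 in the receptor mutant. AT3G15630, of unknown function, had 115 and 111 RPKM in the dark wild type, 107 and 94.1 in the blue-lit wild type, 108 and 104 in cry1 cry2 and 23.2 and 20.4 in the receptor mutant. In the first of these, the mutant kept 24.3%, and in the other two 16.8% and 19.3%.

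**Figure D4:**
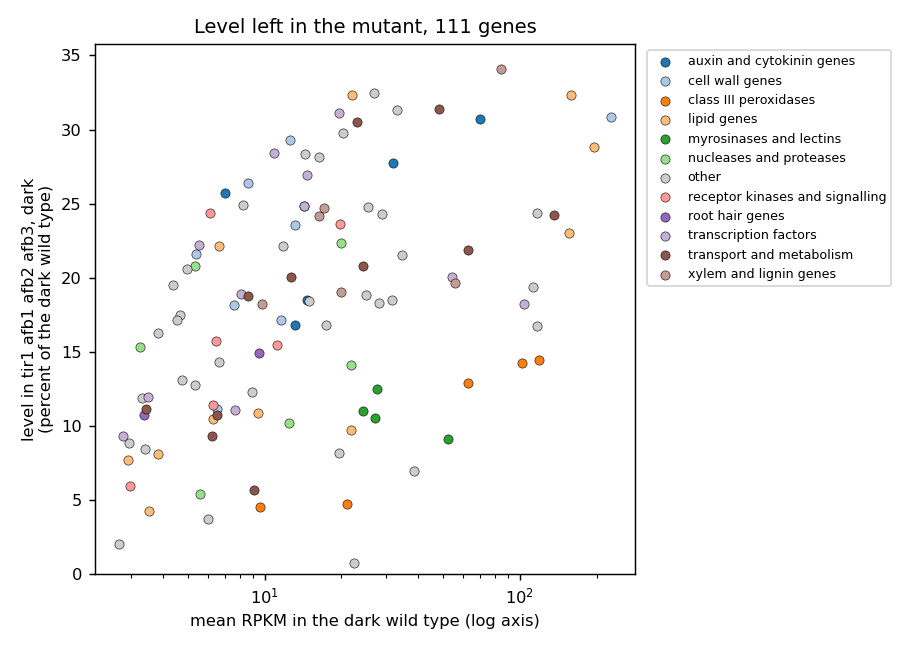
Each point is 1 of the 111 genes, with mean RPKM in the dark wild type on the horizontal log axis and the level in the receptor mutant as percent of the dark wild type on the vertical axis, coloured by role. Levels left ran from 0.729% to 34.1%, and the class III peroxidases (orange) and the myrosinases and lectins (green) lie in the lower part at medium to high levels.

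The rule adds 1 RPKM to each mean, so a weak gene needs a larger true difference to be taken. The last genes inside the threshold were AT4G34750, AT1G23340 at -1.505 and AT3G53100 at -1.504. AT1G23340 had 2.83 and 3.69 RPKM in darkness and 3.95 and 3.19 in blue light in the wild type, 2.92 and 2.69 in cry1 cry2 and 0.452 and 0.548 in tir1 afb1 afb2 afb3. AT3G53100 had 22.8 and 21.1 RPKM in darkness and 18.1 and 19.4 in blue light in the wild type, 23.3 and 23.1 in cry1 cry2 and 7.05 and 7.14 in tir1 afb1 afb2 afb3. The first genes outside it that met both windows were AT2G28810 at -1.49, AT3G25640 at -1.49 and AT3G55900 at -1.49. AT2G28810, another Dof factor, had 15.3 and 15.1 RPKM in darkness and 15.6 and 16.9 in blue light in the wild type, 16.4 and 16.7 in cry1 cry2 and 5.17 and 4.34 in tir1 afb1 afb2 afb3. AT3G25640 had 8.35 and 7.33 RPKM in darkness and 8.62 and 9.22 in blue light in the wild type, 7.94 and 6.62 in cry1 cry2 and 2.08 and 2.201 in tir1 afb1 afb2 afb3, and AT3G55900, an F-box gene, had 3.197 and 3.204 RPKM in darkness and 3.49 and 3.42 in blue light in the wild type, 2.41 and 2.42 in cry1 cry2 and 0.557 and 0.434 in tir1 afb1 afb2 afb3. Genes on both sides of the line had similar values.

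Of the 110 placed in the TAIR10.1 gene order, 0 lay next to another, and the counts on chromosomes 1 to 5 were 30, 19, 24, 13 and 24. As shares these are 27.3%, 17.3%, 21.8%, 11.8% and 21.8%, beside 26.1%, 15.6%, 19.9%, 15.2% and 23.2% of all gene models placed. There were 5 pairs that lay within 10 genes of each other, among them AT1G06090 with AT1G06120 and TBL34 with AT2G38390. No matching count of neighbours or close pairs was made for other genes, so these counts say nothing about clustering. Near a mutated receptor gene, CYP87A2 lay 10 genes from AFB3, the only one of the 110 within 25 genes of any of the 4, where 0.749% of all gene models lie. CYP87A2 had 6.55 and 6.49 RPKM in the dark wild type, 7.91 and 8.14 in the blue-lit wild type, 7.21 and 7.47 in cry1 cry2 and 0.687 and 0.714 in the receptor mutant.

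Limma was also read for listed genes of auxin response and of root and shoot tissues, most of which are not among the 111. The lists were chosen with earlier results of these data known, so their counts are descriptions. They include 8 of the 111 genes, whose falls the rule placed. Of these, 2 are on the xylem list. The SAUR, auxin synthesis and transport, lateral root, procambium, root hair and root nutrient uptake lists hold 1 each. The lists overlap. IAA14 is on the Aux/IAA list and, as SLR, on the lateral root list. AT5G10510 is on the root meristem list as PLT3 and on the stomata and shoot meristem list as AIL6. Each of these genes is counted in both of its lists. Below, fell and rose mean a limma adjusted p under 0.05, and parentheses hold the log2 fold change and its standard error (SE). Counts use the fit over all 20044 genes. Of these, 51.4% were called lower and 27.5% higher in the receptor mutant, and 40.4% lower and 34% higher in blue light. Medians over all of them were -0.24 for the mutant and -0.06 for blue light. The receptor mutant and blue light were both compared with the same dark wild-type libraries, and their counts are therefore given side by side only. Moving to upper-quartile scaling raised the median of all tested genes in the receptor mutant from -0.24 to -0.09 and gave 8625 genes called lower and 6747 higher in place of 10295 and 5521, or 56.1% of calls lower in place of 65.1%. Of the 304 listed genes called in the main scaling and tested in the other, 0 changed direction.

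Early auxin response genes fell in the receptor mutant. Of 26 Aux/IAA genes 25 fell and 1 rose, at a median of -1.16, and in blue light 20 fell and 1 rose. Without replicate 2 of the receptor mutant the rise in the mutant was not called, leaving 0. IAA29 fell most (-3.76, SE 0.09), from 23.3 ± 1.28 to 0.789 ± 0.1105 RPKM. It lay inside the wild-type window in blue light but not the one for cry1 cry2, and so is not among the 111. IAA19 fell in both comparisons (-3.10, SE 0.10 in the mutant and -3.45, SE 0.10 in blue light). Of 71 SAUR genes, small proteins that promote elongation, 54 fell and 13 rose, of which 3 falls and 3 rises belong to genes that passed the filter on low values only through the dark wild type or only through the mutant, with AT5G50760 at -3.69, SE 0.07. Of 8 GH3 genes 6 fell, with WES1 at -2.10, SE 0.06, and 1 rose, DFL2 at 2.53, SE 0.08. The GH3 family includes enzymes that conjugate auxin to amino acids, but not every listed gene need be one. Among 25 genes of auxin synthesis and transport 19 fell, with the influx carrier AUX1 at -1.86, SE 0.05 and the kinase gene WAG2 at -2.40, SE 0.09, and 2 rose, TAR2 at 1.36, SE 0.11 the most. Leaving out replicate 1 of the dark wild type, or either replicate of the mutant, left 1 of these rises.

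Vascular genes fell almost throughout. Of 24 xylem and secondary wall genes 23 fell and 0 rose, at a median of -1.89, and the summed level of the list was 446 to 473 RPKM in the dark wild type, 387 to 389 in blue light, 666 to 678 in cry1 cry2 and 75.6 to 77.1 in the mutant. The xylem peptidases XCP1 (-2.70, SE 0.07) and XCP2 (-2.68, SE 0.06) and the laccase LAC11 (-2.68, SE 0.09) fell most of those that are not among the 111. In blue light 12 of the 24 fell and 1 rose. Of 15 genes of procambium and early vasculature 14 fell and 0 rose, with BHLH32 (TMO5) at -2.37, SE 0.08 and HB-8 at -2.10, SE 0.08, both regulators of vascular precursor cells. TED6, FLA12 and AT1G68810 are on these lists.

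Root genes fell as well. Of 25 root hair genes 22 fell and 2 rose, at a median of -1.51, with the wall proteins PRP1 (-2.45, SE 0.17) and PRP3 (-2.20, SE 0.11) among the falls. The rises were GL2 (0.83, SE 0.08) and CPC (0.35, SE 0.12). Without replicate 2 of the dark wild type, or of the mutant, 1 root hair gene rose in place of 2. The blue-light counts of this list ran the other way, with 17 risen and 2 fallen. The summed level of the root hair list was 179 and 198 RPKM in the dark wild type, 241 and 268 in the blue-lit wild type, 196 and 201 in cry1 cry2 and 62.0 and 63.1 in the receptor mutant. Of 16 lateral root genes 14 fell and 1 rose, of 11 root meristem genes 9 fell and 0 rose, and of 4 root cap genes 4 fell. Of 20 endodermis and suberin genes 17 fell and 1 rose, KCS2 (0.92, SE 0.06), an enzyme of fatty acid elongation. Of 19 root nutrient uptake genes 14 fell and 3 rose, among them the phosphate transporter PHT1;4 (0.71, SE 0.09) and NRT3.1 (0.52, SE 0.12), a partner of nitrate transporters. PIP2;4, a root aquaporin, fell from 554 ± 32.1 to 76.5 ± 1.603 RPKM (-2.84, SE 0.08), and CASP5, a Casparian strip protein, fell to 23.2 ± 0.0407 RPKM (-2.53, SE 0.07). The summed root cap level was 25.3 and 26.3 RPKM in the dark wild type and 6.17 and 7.04 in the mutant. These tissue lists fell in the same libraries in which the 111 genes were low, and their part in those levels was not tested.

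**Figure D5:**
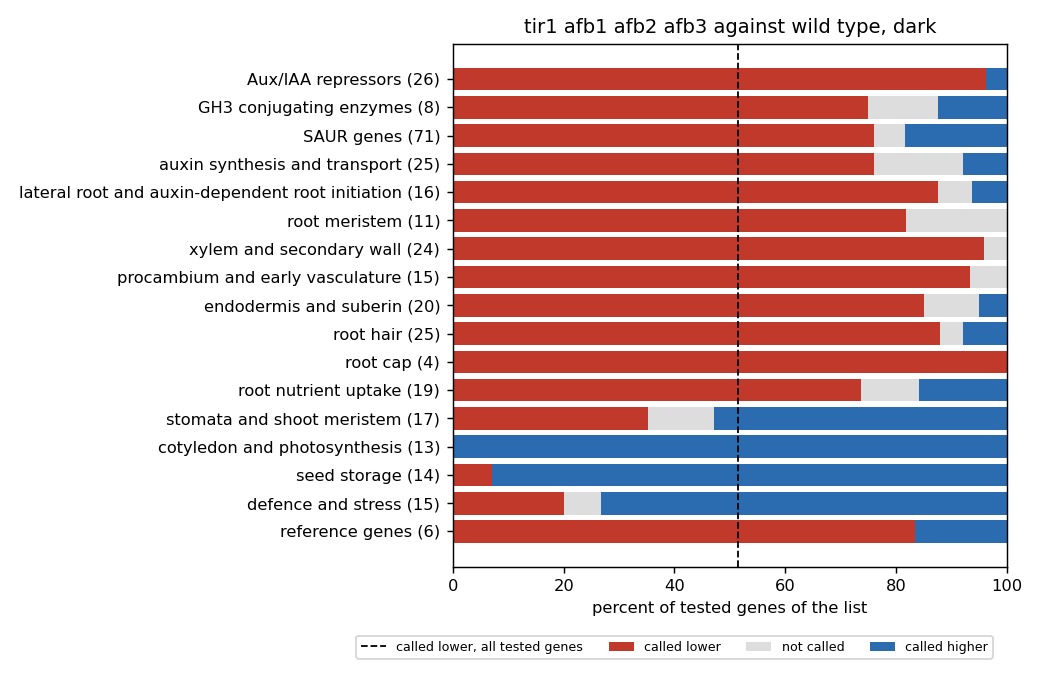
Share of tested genes in each list that limma called lower (red), not called (grey) or called higher (blue) in the receptor mutant, compared with dark wild-type seedlings, with the number tested in parentheses. The dashed line marks the 51.4% of all tested genes called lower, and auxin, vascular and root lists pass it, as do 5 of the 6 reference genes, while the stomata, photosynthesis, seed storage and defence lists do not.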

How the data were processed

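The 8 deposited files hold RPKM, per the file headers, for 27416 gene models each. The submitters' processing notes name Bowtie2 2.2.2 and the TAIR10 build. The annotation release, read assignment and strand are not given in the sources used here. Whole reads were recovered from the RPKM steps (24717 of 24717 models above 0, whole to within 0.01 reads), giving 19.3 M to 23.1 M reads per library. Tested on simulated data, this step returned 8 of 8 library totals and 1491 of 1500 gene counts exactly. The values stayed RPKM for all tests.

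Tests used limma 3.58.1 in R 4.3.3 (eBayes with a trend) on log2 of RPKM + 1, for the 20044 genes that reached 1 RPKM in 2 or more libraries, in a single fit of all 8 libraries with 4 residual and 6.96 prior degrees of freedom. Fold changes on this scale understate the change of low genes. On a simulated comparison of the mutant with the dark wild type over 18994 genes, the fit found 200 of 200 changed genes with 18 wrong calls. The simulation changed only these 200 genes, left out the weakest ones, and used large steps and the same spread for every gene. It therefore does not measure how many real changes the fit finds. At an unadjusted p under 0.05, 16062 genes passed for the mutant and 15214 for blue light. Replicates differed with an SD of 0.109 to 0.118 (log2).

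Symbols, gene order, promoters and proteins came from RefSeq on TAIR10.1, where 26719 models were found, and printed coordinates are those of TAIR10.1 looked up by locus name, since the files hold none. Proteins were compared with BLAST 2.17.0, and a shared family meant at least 50% identity. The genes, lists and roles were chosen with earlier results of these data known. Values in every library are given for the 15 largest differences at 5 RPKM or more in the dark wild type, the 10 highest genes, genes on a list or sharing a family, and the 3 genes nearest each side of the threshold, and listed genes were named by the largest called change, up to 3 per list and direction. WOL, ARR4 and CYP87A2 were added after their values were seen. Alternatives covered the pseudocount, the filter, upper-quartile scaling, fitting the 2 compared groups alone, a replicate block, no variance trend, other thresholds and windows, and leaving out each library. The promoter sequence of 1 further gene is not reported here.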

Additional observations from a re-analysis of the deposited data

How the results depend on the processing

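How many genes the rule takes depended on its settings. In place of 111, a pseudocount of 0.1 took 227 genes (104 of the 111 among them), a threshold of -1 took 343 and of -2 took 48, and windows of 0.2 and 0.4 took 51 and 186. A pseudocount of 0.5 took 155 (108 shared), upper-quartile scaling 94 (82 shared), replicate 1 of each group alone 112 (83 shared) and replicate 2 alone 130 (78 shared), and 58 genes were taken by both single replicates. Leaving out each library in turn took 102 to 118 genes, with 87 to 106 shared, and 57 of the 111 were taken in all 8 of these settings. Within 50 genes of a mutated receptor gene lay 2 of the 111 in place of 1, the second being AT3G26440, 43 genes from AFB2. Of all gene models placed, 1.5% lie within that distance.

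A filter of 5 RPKM tests fewer genes. With it 13 of 15 root hair genes fell in place of 22 of 25, and 8 of 53 SAUR genes rose in place of 13 of 71. Rises were 8 of 9 seed storage genes in place of 13 of 14, and 1 of 20 genes of auxin synthesis and transport in place of 2 of 25. Of 10 lateral root genes 0 rose, in place of 1 of 16. Stomata and shoot meristem genes had 3 falls and 4 rises among 8 tested, in place of 6 and 9 among 17. Rises in auxin synthesis and transport were 1 with a pseudocount of 0.1 and 4 with upper-quartile scaling. Counts over all genes and over all lists together stayed within 1.5 times their value. Without single libraries the mutant had 9600 to 10197 genes called lower (10295 with all) and 4934 to 5488 higher (5521), blue light had 13427 to 15016 called (14917), and of listed genes 222 to 234 were called lower (234) and 56 to 71 higher (71). With 50 bases after the start added, TGTCNC stood in 35 promoters (31.8%), beside 29.2% of all 26713 promoters. Of 238 recomputed log2 ratios of 34 named genes, 63 moved by over 1 SD and 0 reversed, over a range of -6.42 to -1.34. The replicate numbers were checked for pairing through the correlation of the replicate differences, which was -0.115 between the dark wild type and the mutant, 0.137 between the dark and blue-lit wild type and -0.0284 to 0.0335 in the other 4 pairs of groups, and the labels give no shared batch. With the replicate block 10258 genes were called lower and 5498 higher in the mutant, 14873 for blue light, and 234 and 71 listed genes. Crossing the numbers in the mutant, an alternative chosen after seeing the data, gave 10327 lower and 5557 higher. Depth limits the weakest genes, where 1 to 3 reads stand behind a mutant value.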

Other observations

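Listed genes of green tissue, seed reserves and stress rose in the receptor mutant in darkness. All 13 genes of cotyledon and photosynthesis rose, at a median of 1.94, with the antenna gene LHCB2.1 going from 82.4 ± 0.5898 to 1071 ± 9.399 RPKM (mean ± SD, n = 2, limma log2 change 3.68, SE 0.08). Wild-type seedlings in blue light had 11 of these genes risen and 2 fallen, LHCB2.1 (-0.69, SE 0.08) and LHCB3 (-0.50, SE 0.07). Of 14 tested seed storage genes, 6 passed the filter on low values only through the mutant libraries, so their rise was fixed by the filter. Of the other 8, 7 rose and 1 fell, with a median of 1.55. With 1 of the 2 mutant libraries left out, whichever it was, 9 of the 14 passed the filter and 8 rose, in place of 13. The 12S globulin gene CRA1 went from 0.259 ± 0.0562 to 35.2 ± 2.76 RPKM (4.84, SE 0.22), and the summed seed storage level was 12.0 and 14.3 RPKM in the dark wild type, 23.4 and 31.6 in the blue-lit wild type, 48.7 and 72.9 in cry1 cry2 and 123 and 126 in the mutant.

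Defence and stress genes rose in 11 cases of 15 and fell in 3, and without the 1 gene that passed the filter only through the mutant, in 10 and 3 of 14, with a median of 2.57. The stress-induced regulator WRKY40 went from 3.1697 ± 0.314 to 101 ± 7.31 RPKM (4.62, SE 0.10), while VSP1 fell (-1.26, SE 0.09). Of 17 genes of stomata and shoot meristem 9 rose, 3 of them genes that passed the filter only through the mutant, with the stomatal regulator SPCH at 1.76, SE 0.11, and 6 fell, with the homeobox gene KNAT6 at -1.12, SE 0.08. Of 6 reference genes 5 fell and 1 rose, at a median of -0.46, with ACT2 at -1.39, SE 0.06 and GAPC2 at 0.88, SE 0.06. These lists moved in the same libraries in which the 111 genes were low, and their part in those levels was not tested.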
